A study of Mus musculus with 19 samples.

Results

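Point changes and small insertions or deletions read from tumour RNA, other than exchanges of A:T for T:A, were taken from a list of coding changes called in mouse skin squamous cell carcinoma. A member was a unique combination of chromosome, position and alleles, outside chromosomes 17 and Y, listed in any of 4 RNA libraries. The rule gave 340 members of 656 listed sites, in 303 genes: 275 single-base changes in 241 genes and 65 insertions and deletions in 64 genes. The remainder were 217 A:T to T:A changes and 99 sites of all kinds on chromosomes 17 and Y.

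The tumours, SCC1 and SCC2, were skin carcinomas of strain C57BL/6 grown as allografts from 10000 cells placed in the dermis. Proliferative cells were sorted as CD71hi H2BGFPlo and quiescent cells as CD71lo H2BGFPhi, with RNA from 100000 cells per population. CD71 is the transferrin receptor, and a histone H2B-GFP label is diluted at each division, so cells that keep it have divided little. There was 1 library per population and tumour, so a test between libraries compares those libraries and not the conditions. The sources used here name no host genotype, driver of the GFP transgene, inducing carcinogen or normal tissue for comparison.

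A tumour's expressed changes can arise in several ways that RNA alone does not separate: inherited differences from the reference strain, mutations acquired in the tumour, and chemical editing of RNA. C:G to T:A and A:T to G:C are transitions, which keep a purine a purine, and the other classes are transversions. Deamination of cytosine gives C to T, oxidised guanine is read as T, and ADAR enzymes deaminate adenosine in RNA to inosine, which is read as G. A:T to T:A changes, left aside here, are the textbook mark of the skin carcinogen DMBA. Whether a member is inherited, acquired or edited cannot be told apart in these libraries.

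Reference sequence around 7 members could be read from RefSeq windows at gene starts (build GRCm38.p6, forward strand, which is the coding strand of all 4 genes shown). They show what a listed change looks like, and the capitals mark the reference bases that were listed as changed. The first carries a G to A change in exon 1 of Hddc2 (G9R) at chr10:31313424-31313454. The second has a G to T change in exon 1 of Adat2 (D12Y), a subunit of a tRNA deaminase, at chr10:13553284-13553314. The window in exon 1 of Timm8b (L12S), a mitochondrial import chaperone, has a T to C change at chr9:50603975-50604005. Txndc17, a thioredoxin-like protein, has 4 members within 6 bases at chr11:72207619-72207654: F4S, E5X, E5A and E6K.
Hddc2: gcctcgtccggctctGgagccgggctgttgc
Adat2: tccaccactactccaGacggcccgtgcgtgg
Timm8b: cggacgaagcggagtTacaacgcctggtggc
Txndc17: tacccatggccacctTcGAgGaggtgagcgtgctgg
Hddc2 was listed in SCC1 proliferative cells at 28% of 25 reads, and Adat2 in the same library at 12% of 34 reads. Timm8b was listed in proliferative cells of both tumours, at 13% of 78 reads in SCC1 and 12% of 75 reads in SCC2. In SCC1 proliferative cells the 4 Txndc17 changes stood at 13% of 296, 12% of 312, 12% of 313 and 11% of 339 reads, in the order given. All 4 lay close to the lowest percent in the list, which was 11, and E5X and E5A fell in the same codon. None of the 4 was listed in SCC2 proliferative cells, and 3 were listed in SCC2 quiescent cells at 12% to 13%.

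Each listed value is the percent of reads at a site that carried the alternative allele, with the read depth there. The list starts at 10 reads and 11%, so a site that is not listed in a library may have had too few reads or too low a percent there. SCC1 proliferative cells held 234 members, SCC1 quiescent cells 198, SCC2 proliferative cells 194 and SCC2 quiescent cells 47. SCC2 quiescent cells stood apart over the whole list as well, with 95 sites against 411 to 498 in the other libraries. Median depth at single-base members was 39, 41, 31 and 23 reads in the same order. The sources used here give no read total per library. Intervals are exact 95% binomial (Clopper-Pearson) intervals, which cover counting error only because PCR copies are not independent molecules.

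Among the 275 single-base members, C:G to T:A was the most frequent class with 72 sites, or 26.2%. C:G to A:T followed with 67, A:T to G:C with 56, A:T to C:G with 52 and C:G to G:C with 28. Transitions made up 128 of 275, or 46.5% (interval 40.5 to 52.6). The share of C:G to T:A was 26.3% of single-base members in SCC1 proliferative cells, 26.0% in SCC1 quiescent cells, 24.3% in SCC2 proliferative cells and 16.1% of 31 in SCC2 quiescent cells. Missense changes numbered 267 and stop codons 8.

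**Figure D1:**
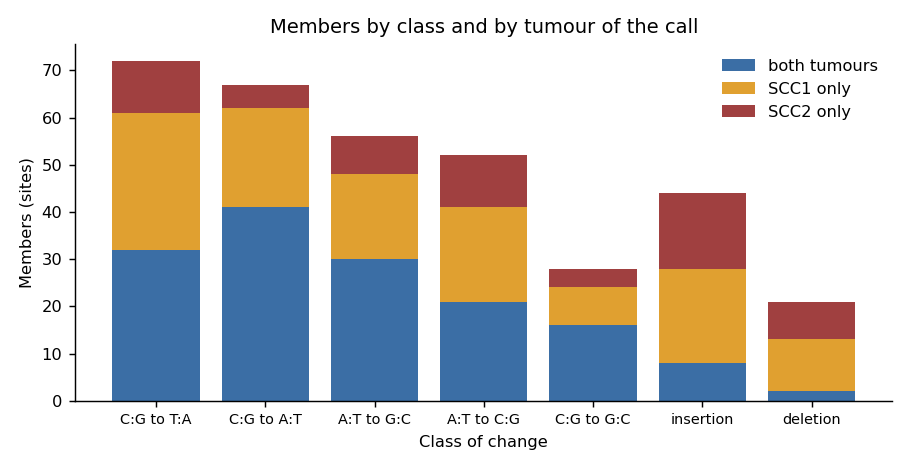
Number of members (vertical axis, sites) in each class of change (horizontal axis), split by colour into sites listed in both tumours, in SCC1 only and in SCC2 only. C:G to A:T has 41 of 67 sites in both tumours, while insertions and deletions have 10 of 65.

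Single-base members were often listed in both tumours: 140 of 275, or 50.9% (44.8 to 57.0). SCC1 alone had 96 and SCC2 alone 39. The A:T to T:A changes were listed in both tumours at 149 of 217 sites, or 68.7% (62.0 to 74.8), and insertions and deletions at 10 of 65, or 15.4%. By class, the share in both tumours ran from 61.2% for C:G to A:T through 44.4% of 72 for C:G to T:A to 40.4% of 52 for A:T to C:G. Sites are not replicates, so these shares are descriptions. The most common pattern was a listing in every library but SCC2 quiescent, with 93 single-base members, and 23 were listed in all 4 libraries. At the other end, 106 single-base members were listed in 1 library. Over all members, 150 were in both tumours, and without SCC2 proliferative cells 29 were, since SCC2 quiescent cells then stood alone for that tumour.

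Within a tumour, most single-base members listed in quiescent cells were also listed in proliferative cells. They were 146 of 173 in SCC1 (84.4%) and 25 of 31 in SCC2. Over the whole list it was 356 of 422 sites in SCC1 and 70 of 95 in SCC2. The A:T to T:A changes had 148 of 160 and 29 of 29, but insertions and deletions had 9 of 25 and 3 of 16. Read the other way, 146 of the 209 single-base members in SCC1 proliferative cells (69.9%) were also listed in quiescent cells. In SCC2 it was 25 of the 173 (14.5%). The lower share in SCC2 went with the lower depth and shorter list of its quiescent library, and its cause was not tested.

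**Figure D2:**
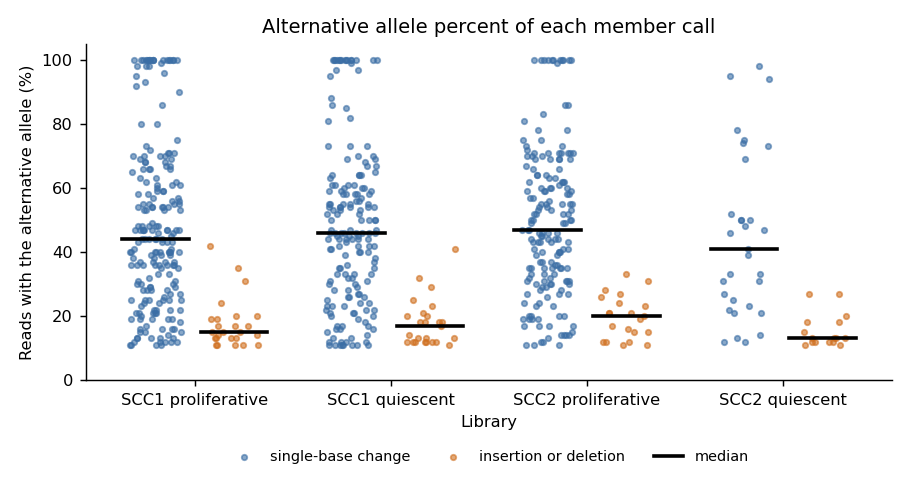
Percent of reads with the alternative allele (vertical axis) for every member call in each library (horizontal axis), with single-base changes in blue, insertions and deletions in orange and bars at the medians. Single-base medians lie at 41 to 47% and those of insertions and deletions at 13 to 20%.

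Single-base members centred a little below an even share of reads. Their median percent was 44 in SCC1 proliferative cells (11 to 100, 209 sites), 46 in SCC1 quiescent cells (173 sites), 47 in SCC2 proliferative cells (173 sites) and 41 in SCC2 quiescent cells (31 sites). The A:T to T:A changes had medians of 47, 44, 46.5 and 46 in the same order. Medians of changes listed in both tumours and of those in 1 tumour were 48 and 29 in SCC1 proliferative cells, 50 and 33 in SCC1 quiescent cells, and 50 and 34 in SCC2 proliferative cells. Median depth was also higher at the shared sites, with 56 against 25 reads in SCC1 proliferative cells. In that library 26.3% of sites in 1 tumour stood under 20% of reads, against 6.77% of shared sites. With a lowest listed percent of 11, such low sites are easier to miss in a second tumour. The parts of depth and of this floor in the difference were not tested.

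A smaller group was nearly fixed. At 90% of reads or more stood 27 members in SCC1 proliferative cells, 19 in SCC1 quiescent cells, 12 in SCC2 proliferative cells and 3 in SCC2 quiescent cells. C:G to T:A supplied 14 of the 27 and 11 of the 19 in SCC1, but 3 of the 12 and 1 of the 3 in SCC2. In every library that listed them, 20 members were at 90% or more. Ovca2 T32A was at 100% in 3 libraries, of 35, 29 and 27 reads, and so was Tymp D389N, in the enzyme that breaks down thymidine, of 23, 15 and 12 reads. Cmtr2 R718W, in a cap methyltransferase, was at 100% of 16, 12 and 10 reads. In SCC1 alone, Dsp T699M (chr13:38184102, exon 15) in desmoplakin, which ties desmosomes to keratin filaments, was at 100% of 34 reads in proliferative and 100% of 27 in quiescent cells. Hdac10 G522R, in a deacetylase, was at 100% of 22 and of 11 reads, and 2 changes in the predicted gene Gm7244, V5M and R9K, were at 100% in both SCC1 libraries. The interval for Dsp reached down to 89.7% and 87.2%.

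The percents of a site in the 2 populations of SCC1 lay close together. Over 146 single-base members listed in both, the percents correlated at 0.88 by Pearson's r and 0.80 by Spearman's rho, the median absolute difference was 7 percentage points and 69.2% were within 10 points. Between proliferative cells of the 2 tumours, r was 0.55 over 130 members, the median absolute difference 10.5 points, and 65 of 130 lay within 10 points. In SCC2, 25 members listed in both populations had r of 0.84. Between tumours, SCC2 quiescent cells had r of 0.75 with SCC1 proliferative and 0.76 with SCC1 quiescent cells, over 26 members each. SCC1 quiescent and SCC2 proliferative cells had r of 0.57 over 123 members. The sets of sites differ between these pairs, so their r values are not directly comparable. These correlations run across sites of shared libraries and are descriptions, as sites are not independent replicates.

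**Figure D3:**
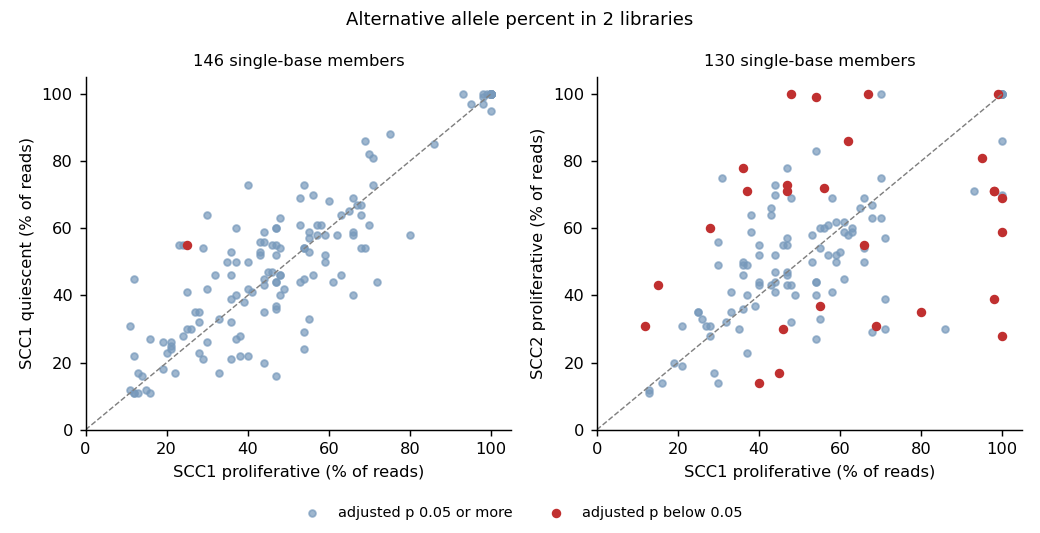
Percent of reads with the alternative allele at single-base members in SCC1 proliferative cells (horizontal axes) against SCC1 quiescent cells (left) and SCC2 proliferative cells (right), with red points for sites past the adjusted p threshold of 0.05 and a dashed line of equality. Points lie closer to the line on the left (r of 0.88) than on the right (r of 0.55).

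Reads with and without the alternative allele were compared between quiescent and proliferative libraries with a two-sided Fisher exact test, adjusted by Benjamini-Hochberg over 426 site comparisons of the whole list. In SCC1, 1 of 155 members passed, beside 1.12% of the 356 sites of all kinds (0.562% higher and 0.562% lower in quiescent cells). In SCC2, 1 of 28 passed, which was lower in quiescent cells, beside 1.43% of 70 sites, none of them higher (0%). At an unadjusted p under 0.05 there were 13 of 155 members in SCC1, where 33 of all 356 sites were, and 4 of 28 in SCC2, where 9 of all 70 were. The p-values count reads of 1 library per group and, like the intervals, take account of counting error alone. With tumour as a replicate block, 0 of the 23 members listed in all 4 libraries passed (binomial model, likelihood ratio test, 2 at an unadjusted p under 0.05), beside 4.62% of 65 sites. Both members that passed within a tumour are in Flna, the X-linked gene of filamin A, which crosslinks actin.

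Flna Q2333R (X chromosome, position 74226862, exon 41) was at 25% of 268 reads (interval 19.9 to 30.6) in SCC1 proliferative cells and 55% of 176 reads (47.4 to 62.6) in SCC1 quiescent cells. The intervals did not overlap, and the quiescent library was higher (Fisher exact test, adjusted p = 7.21e-08). It was not listed in SCC2. Flna H2517P (position 74224934, exon 45) was at 99% of 835 reads, 100% of 660 and 100% of 756 in SCC1 proliferative, SCC1 quiescent and SCC2 proliferative cells, and at 95% of 60 reads in SCC2 quiescent cells. The difference in SCC2 passed (Fisher exact test, adjusted p = 0.0323), but with whole percents moved by 0.5 towards each other it did not (adjusted p = 0.323). S100a10 G78W, in the annexin A2 partner p11, was at 57% of 1122, 58% of 964, 61% of 1055 and 50% of 282 reads in the same order. Its SCC2 difference did not pass with adjustment over both tumours (Fisher exact test, adjusted p = 0.0753) and passed with adjustment within SCC2 (0.0371).

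The same test was run between the proliferative libraries of the tumours. Of 138 members listed in both, 27 passed (14 higher in SCC1 and 13 lower), close to the 19.7% of all 325 sites (10.5% higher in SCC1 and 9.23% lower). This comparison was added after the values were seen, and its genes were chosen by their values. The effect of whole percents on its calls was not tested. It bears on calls near the threshold, such as Flna H2517P at 99% of 835 and 100% of 756 reads (Fisher exact test, adjusted p = 0.0438). Rpl4 R121P (chr9:64175663, exon 4), in a protein of the large ribosomal subunit, was at 54% of 1163 and 54% of 1135 reads in SCC1 and at 99% of 834 and 98% of 150 in SCC2. Both populations of a tumour thus lay together, and the tumours' percents did not overlap (proliferative libraries, Fisher exact test on reads, adjusted p = 2.65e-138, counting error only). Ptges3 Q149R, in the Hsp90 cochaperone p23, went the other way, at 98% of 242 and 99% of 165 reads in SCC1 and 71% of 254 and 74% of 23 in SCC2. Every passing member on chromosome 10, Ptges3 and Ccar1 E710K (98% against 71%) among them, was higher in SCC1, as on chromosome 18. Those on chromosome 9, Rpl4 and Dpagt1 L270F (67% against 100%) among them, were all higher in SCC2. On chromosomes 11 and 15 they went both ways. Passing sites of 1 chromosome may not be separate observations, which was not tested. Twist1 S169G, in a transcription factor known for its part in epithelial to mesenchymal transition, was at 47% of 139 and 55% of 146 reads in SCC1 and 73% of 121 in SCC2 proliferative cells. Pmepa1 D146N, in a TGF-β target that dampens Smad signalling, was at 55% of 397 and 59% of 456 reads in SCC1 against 37% of 194 and 48% of 44 in SCC2.

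Fkbp8 N220T, in an FK506-binding protein, stood at 55%, 53%, 54% and 69% (217 to 291 reads, but 35 in SCC2 quiescent cells). Tpi1 K56Q, in the glycolytic enzyme triose phosphate isomerase, was low throughout, at 19% of 306, 18% of 345, 20% of 295 and 14% of 50 reads. Eif3c Y510C, in a translation initiation factor, was at 66% of 360, 59% of 241, 55% of 224 and 31% of 13 reads.

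**Figure D4:**
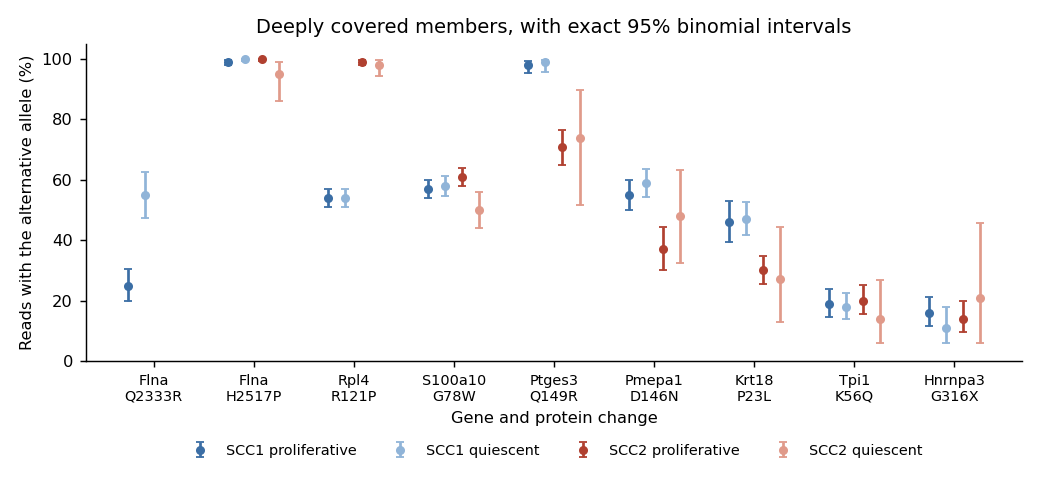
Percent of reads with the alternative allele (vertical axis) in each library for 9 deeply covered members (horizontal axis), with exact 95% binomial intervals from the rounded percent and the depth. Rpl4 separates by tumour (54% against 98 to 99%), and Flna Q2333R separates the 2 SCC1 populations (25% against 55%).

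Members were looked up in lists of genes that bear on skin cancer and on the origin of changes. Of 46 Ras, squamous carcinoma and tumour suppressor genes, 2 had one: Ep300 A2252D, in a histone acetyltransferase, at 14% of 42 and 16% of 51 reads in SCC1, and Met Y41C, in the HGF receptor, at 40% of 10 reads. The same list had 8 genes with an A:T to T:A change. DNA repair had 2 of 47, Ddb2 H329P at 19% of 52 and 26% of 27 reads in SCC1 and a 1-base deletion in Polb at 13% of 15 reads. ADAR and APOBEC family deaminases had 0 of 6, TGF-β and BMP pathway genes 0 of 36, immune cell markers 0 of 20 and fibroblast and endothelial markers 0 of 20. Callable depth per gene is not given, so a gene with no member may not have been readable. For the same reason no share over all readable genes stands beside the count of any list, here or below.

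Keratins and adhesion genes had members in 6 of 35 genes. Krt5 Y57C, in the basal keratinocyte keratin that marks the labelled tissue, was at 47% of 124 and 44% of 111 reads in SCC1 and 71% of 45 in SCC2 proliferative cells, which passed between tumours (Fisher exact test, adjusted p = 0.0335). Krt18 P23L, in a keratin of simple epithelia, was at 46% of 223 and 47% of 327 reads in SCC1 and 30% of 399 and 27% of 34 in SCC2. Its proliferative libraries also passed between tumours (Fisher exact test, adjusted p = 0.000901). Pkp3 Q494P, in the desmosome protein plakophilin 3, was at 66% of 149, 58% of 124 and 54% of 152 reads. Krt16 C42Y was at 13% of 55 reads in SCC1 proliferative cells. Krt19 held 2 members, and the coding change listed for its C85G does not match the genomic alleles. No expression levels are given in the files used, so the labelled tissue was checked only through such keratin reads. Keratin genes have similar copies, so reads may be shared between them.

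Mitosis genes had members in 3 of 32. Cenpf Q559P, in a kinetochore protein, was at 61% of 46 reads in SCC1 and 59% of 73 in SCC2, and Bub1b A933D, in a spindle checkpoint kinase, at 35% of 88 in SCC2. Each of the 3 was listed in proliferative cells alone. In the authors' deposited table of expression, Cenpf had a log2 quiescent to proliferative ratio of -5.26 in SCC1 and -2.09 in SCC2. The authors' deposited table gave Bub1b -2.95 and -1.76, and Mki67, with a 1-base insertion at 21% of 14 reads, at -5.90 and -2.28. Of the 303 genes with a member, 41 were in the authors' deposited table, 27 of them below 0 in both tumours, beside 841 of its 1609 genes.

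Known sites of A-to-I recoding, where ADAR changes an amino acid through RNA, were looked up by gene. Of 24 genes 5 had a member, and 4 of the 6 members were A to G on the coding strand, among them Flna Q2333R, Blcap Q5R and Azin1 S367G. Flna Q2333R was described above. Blcap Q5R (chr2:157558140, exon 2) was at 33% of 12 reads in SCC1 quiescent cells, and Azin1 S367G (chr15:38491612, exon 11), in antizyme inhibitor 1, at 12% of 33 reads in SCC2 proliferative cells. Each of these 3 was listed in 1 tumour. Members of other base changes were Flna H2517P and Son V1453I, a G to A change at 44% of 61, 43% of 35 and 44% of 61 reads. The list was written with earlier results of these data known.

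Changed purines lay on the coding strand more often than changed pyrimidines. The coding change matched the genomic alleles for 273 of 275 single-base members, and in 197 of these, or 72.2% (66.4 to 77.4), the coding strand held the purine. A to G was listed 46 times against 9 for T to C, A to C 39 against 13 for T to G, and G to T 46 against 21 for C to A. G to A stood at 47 against 24 and G to C at 19 against 9. For A:T to T:A the share was higher, 192 of 217 or 88.5% (83.5 to 92.4). Genes on the forward strand had 65.0% of 123 and genes on the reverse strand 78.0% of 150. The share was 71.4% for members of both tumours, 72.6% for SCC1 alone and 73.7% for SCC2 alone, and 71.7% with 1 member per gene. The part played by the base makeup of coding sequence, and by the listing of only amino acid changes, was not tested.

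**Figure D5:**
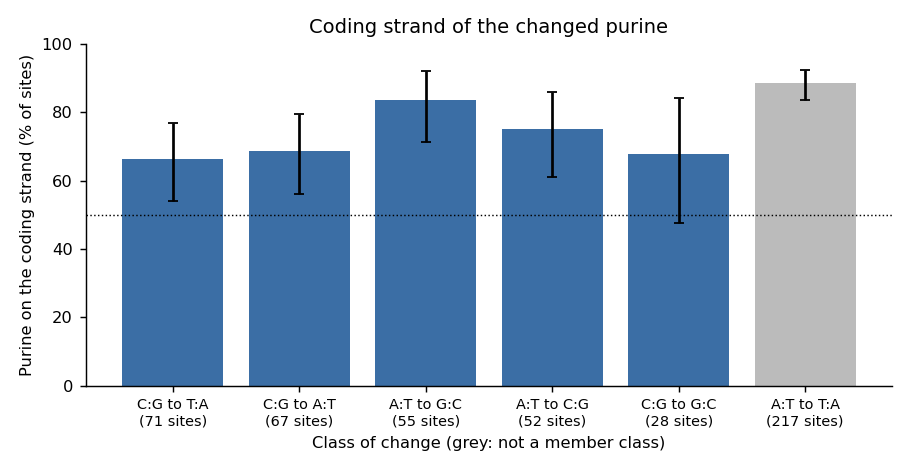
Share of sites with the changed purine on the coding strand (vertical axis, percent) for each class (horizontal axis, with the number of sites), with exact 95% binomial intervals, a dotted line at an even split and the A:T to T:A class in grey. Shares run from 66.2% for C:G to T:A to 83.6% for A:T to G:C, and A:T to T:A is at 88.5%.

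Stop codons were gained at 8 single-base members. Foxc2 Q471X, in a forkhead transcription factor, was at 63% of 56 and 64% of 67 reads in SCC1 and 59% of 34 in SCC2. Hnrnpa3 G316X, in an RNA-binding protein, was low in all 4 libraries, at 16% of 233, 11% of 119, 14% of 184 and 21% of 19 reads. Kctd2 G223X was at 80% of 30 and 58% of 48 reads in SCC1 and 35% of 29 in SCC2. Rcor2 S478X and Tfb2m G28X were listed in 3 libraries each, at 47 to 71% and 27 to 54% of 14 to 45 reads. The others were Txndc17 E5X, Pisd R332X and Zgrf1 E1571X, all in SCC1.

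Of the changes in 1 tumour read in both its libraries, Smarca4 R351Q, in the BRG1 chromatin remodeller, was at 41% of 121 and 41% of 112 reads in SCC1. Anapc2 S582F, in the anaphase-promoting complex, was at 21% of 157 and 26% of 130 reads, and Zfp771 K220R at 11% of 44 and 12% of 137. In SCC2 the single-base member of this kind was Pigt P560A, in the enzyme complex that attaches GPI anchors, at 20% of 59 and 23% of 13 reads.

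Members clustered in some genes. Gstp2 and Txndc17 had 4 each, and 4732456N10Rik, Ifi202b, Krt42, Mrps27, Myl6b and Pisd had 3. Within 10 bases of another lay 20 single-base members, and 4 pairs shared a codon. The Cr1l pair at codon 161 (E161K and E161G) was at 27% and 28% in SCC1 proliferative cells, 35% and 35% in SCC1 quiescent cells and 31% and 31% in SCC2 proliferative cells. In Gstp2, M107I, M107L and G105V lay within 8 bases and had like values, at 23%, 24% and 29% of 29 to 31 reads in SCC1 proliferative cells and 54% to 55% of 11 to 13 reads in quiescent cells. Gstp2, Ifi202b and the keratin-like genes have near-identical copies, so these values are uncertain, and reads from a copy cannot be told apart from changed reads.

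Insertions and deletions were lower in percent and less shared. Their median percent was 15, 17, 20 and 13 in SCC1 proliferative, SCC1 quiescent, SCC2 proliferative and SCC2 quiescent cells, and 51 of 65 were listed in 1 library. These medians lie near the lowest listed percent of 11, so a site can easily go unlisted in a second library. The part of that floor in the low sharing was not tested. There were 44 insertions and 21 deletions. All 38 insertions of 1 base were listed as a duplication of the neighbouring base, and 36 of the 38 were of A or T. Only 10 of the 65 kept the reading frame by length, and 4 of these were in both tumours against 6 of the other 55.

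Rpl14, in a ribosomal protein, had the deepest of these, a duplicated A at 13% of 1198 reads in SCC1 quiescent, 12% of 971 in SCC2 proliferative and 13% of 274 in SCC2 quiescent cells. Rpl22 had a duplicated A in SCC2 at 12% of 283 and 12% of 58 reads. A duplicated base in Pam, an enzyme that amidates peptides, was at 24% of 127 and 23% of 111 reads in SCC1 proliferative and quiescent cells. In SCC2 proliferative cells it was at 21% of 119 reads. Rit1, a Ras-related GTPase, had a duplicated T at 25% of 80 reads in SCC1 quiescent cells. In SCC2 proliferative and quiescent cells it was at 28% of 57 and 18% of 11 reads. Vps13a had a duplicated base at its start codon at 19% of 36 and 32% of 19 reads in SCC1 proliferative and quiescent cells. In SCC2 proliferative cells it was at 21% of 39 reads. The transcript of 9930021J03Rik had one at 17% of 24 and 12% of 33 reads in SCC1.

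The 4 in-frame changes listed in both tumours were in Chd4, Procr, Trmt112 and Zfhx3. Chd4, in the NuRD chromatin complex, gained CTGCCA at 35% of 48 and 41% of 29 reads in SCC1 and 31% of 48 in SCC2. Procr, in the endothelial protein C receptor, gained GGA at 17% of 72, 21% of 56 and 24% of 25 reads, and Trmt112 lost GAG at 19% of 31, 12% of 33 and 19% of 36. Zfhx3 lost the 21 bases CAGCAGCAACAGCGGCAACTA in exon 10 at 11% of 28, 18% of 22 and 33% of 12 reads. The run is shown because it is the longest of the members and the same deletion was listed in both tumours.

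Copy number was set beside the percents, from the authors' deposited regions of gain and loss in each tumour's input DNA. In SCC1 proliferative cells 102 of 209 single-base members lay in a gain, with a median of 40%, against 47% at the 105 with no call. In SCC2 proliferative cells the medians went the other way, 52.5% at the 72 in a gain and 46% at the 98 with no call. The A:T to T:A changes had 48% in gains and 46.5% with no call in SCC1, and 46% and 52% in SCC2. No test was run on these medians, since sites in 1 region share its copy number.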

How the data were processed

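Reads of the 4 RNA libraries were processed with TopHat2 2.0.9, Cufflinks 2.2.0 and Cuffdiff 2.2.0 on build mm10, per the submitters' processing notes. The caller of the changes, its filters, duplicate removal and the treatment of strain differences were not given in the sources used here, and all of them bear on which sites were listed. Per the file headers, each call has a read count at the site, the percent of reads with the alternative allele and a quality score. The authors deposited the percent as whole numbers, which limits its precision at high depth, and the score was not used. The expression ratios are log2 values, deposited by the authors without levels, and the copy number of each region is a whole copy count deposited by the authors. The 2 double negative RNA libraries have no calls in the list and were not analysed here.

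Sites were matched by chromosome, position and alleles, and mirror-image base changes were joined into 1 class. The coding strand came from the first transcript in the deposited annotation. Alternative reads were the percent times the depth, rounded. Libraries were compared by two-sided Fisher exact tests at every site listed in both, with Benjamini-Hochberg adjustment over the whole list at 0.05. Tested on simulated data for the SCC1 comparison of 356 sites, of which 60 were shifted by 30 points, the test found 58.2% of the shifts, and 2.92% of its calls were false. The false share depends on how many sites are shifted. In the data 4 of the 356 passed, so that share need not hold there.

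Sequences and gene positions came from RefSeq, build GRCm38.p6, to which mm10 corresponds. The reference base matched at 7 of 7 sites in its windows, and 327 members with a matched symbol lay inside their gene. Named were members in genes of 9 lists, those past the site test, and the deepest insertions or deletions. Also named were the deepest members of all 4 libraries, those of 1 tumour read in both its libraries, and genes with 3 or more members. Stop codons, members at 90% or more, the sites past the test between tumours and those with a sequence window were chosen after their values were seen. Neighbouring bases, planned from a genome, were not analysed here. A member that the rule names is not reported here. The members and lists were chosen with earlier results of these data known. Tests were run with scipy 1.17.1 and statsmodels 0.14.6, tables handled with pandas 2.3.3 and numpy 2.4.6, and figures drawn with matplotlib 3.10.9, all under Python 3.11.15.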

Additional observations from a re-analysis of the deposited data

Results flagged for a closer look

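The change from proliferative to quiescent cells was compared between the tumours at the 23 members listed in all 4 libraries. The test was a likelihood ratio of a binomial model with 0.5 added to the reads of each kind, adjusted over 65 such sites of the whole list, and it covers counting error only, with 1 library per group. At Flna H2517P the quiescent library was 1 point higher in SCC1 and 5 points lower in SCC2 (adjusted p = 0.000152935, likelihood ratio test on reads, not exact). Rounding of the whole percents decides this call: with the largest p that rounding allows at the site, the adjusted p was 0.198. At S100a10 G78W the quiescent library was 1 point higher in SCC1 and 11 points lower in SCC2 (adjusted p = 0.0272845, the same test, not exact), and with the largest p that rounding allows it was 0.119, so neither call holds under every rounding. Depth in SCC2 quiescent cells was 60 and 282 reads at these sites, against 660 to 1122 in the other libraries.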

How the results depend on the processing

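Of 37 alternative values computed for the member count, the sharing, the transition share, the medians and the site test, 30 stayed within the limits set for them and 7 moved. Staying within a limit did not mean an unchanged count. Members fell from 340 to 257 with at least 20 percent of reads. Those in both tumours fell from 150 to 109 with at least 20 reads, and both counts were within their limits. Leaving out 1 library in turn gave 29 to 147 members in both tumours in place of 150, the lowest without SCC2 proliferative cells. The same step gave 278 to 324 members in all and a transition share of 45.8 to 46.7%. Requiring a listing in both libraries of the tumour raised the median percent of all members, insertions and deletions included, from 40 to 47 in SCC1 proliferative cells, from 44 to 47 in SCC1 quiescent cells and from 27 to 43.5 in SCC2 quiescent cells, and lowered it from 44 to 42 in SCC2 proliferative cells. With single-base members alone, an alternative chosen after seeing the data, the median of SCC2 quiescent cells was 41. The 2 members past the site test became 3 with adjustment within each tumour, which added S100a10 G78W. They became 1, Flna Q2333R, with the percents moved by 0.5 towards each other, also chosen after seeing the data. At least 20 reads per site left 235 members, which was also within its limit. The site test already pairs populations within a tumour. With tumour as a replicate block in 1 model, added after seeing the data, 0 of 23 members listed in all 4 libraries passed. Flna Q2333R is not among those 23. Depth limits most single sites: the median of 23 to 41 reads allows wide intervals, and a site not listed may have been too thinly read.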
